A study of Schizosaccharomyces pombe with 36 samples.

Results

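The genes described here are those whose mRNA was lower after loss of Tti2 and lower without Tra1, but not lower after loss of Tra2, in fission yeast (*Schizosaccharomyces pombe*). They were chosen on their measured values. Counts were divided by the column total and expressed as CPM, only genes averaging 10 CPM or more over all 36 libraries were kept, and M was the log2 ratio of mean CPM + 1 in a group over mean CPM + 1 in its control. Members had an M of at most −0.5 in tti2-CKO with β-estradiol over DMSO, at most −0.3 in tra1Δ over WT, above −0.2 in tra2-CKO with β-estradiol over DMSO, and between −0.3 and 0.3 in the creER control. The rule gave 43 of the 5129 genes in the table, of which 4653 passed the CPM minimum. It reads no hybrid tra1 or spt20 allele apart from the CPM minimum, so the 43 genes were followed there.

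SAGA and NuA4 are transcriptional co-activator complexes that activators bring to promoters. Tra1 and its paralog Tra2 are large pseudokinases, the former in SAGA and the latter in NuA4, and Tti2 is a subunit of the Triple-T (TTT) cochaperone, which helps proteins of their kinase family to mature. Spt20 is a core subunit of SAGA and holds Tra1 through its HIT region (head interacting with Tra1). SAGA is best known in yeast for its part in inducible genes, those of stress responses and nutrient uptake among them.

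PolyA RNA was sequenced from 3 samples in each of 12 groups, all grown in YES medium to mid-logarithmic phase. Strains creER, tti2-CKO (cre-ER lox-tti2-lox) and tra2-CKO (cre-ER lox-tra2-lox) all express a β-estradiol-activated Cre recombinase and received DMSO or β-estradiol for 21 h, or for 18 h in the case of tti2-CKO. The other groups were WT, tra1Δ, spt20Δ, spt20-HITΔ, whose allele also carries a PK3 tag according to its label, and the 2 hybrids tra1-Sptra2 and tra1-Sctra1. In the hybrids a stretch of Tra1 was swapped for the matching stretch of *S. pombe* Tra2 or of *S. cerevisiae* Tra1. According to the study, the former protein no longer enters SAGA and the latter does. Each genotype is a single strain, so that its 3 samples share whatever else differs in that strain.

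Total counts ranged from 4811942 to 9724398 per library. The targeted genes followed the labels, with tti2 at 0.306 to 0.753 CPM in tti2-CKO with β-estradiol, tra2 at 6.57 to 8.95 CPM in tra2-CKO with β-estradiol, tra1 at 0.271 to 0.767 CPM in tra1Δ and spt20 at 3.46 to 5.04 CPM in spt20Δ. Already with DMSO, tti2 stood at no more than 13.4 CPM in tti2-CKO, below the 15.2 to 27.9 CPM of creER with DMSO. In spt20-HITΔ the spt20 mRNA stood at 24.2 to 33.1 CPM, below the 36.3 to 44.9 CPM of WT, and whether this bears on the members was not tested. Levels of single libraries are given below as CPM after TMM normalisation, which scales libraries so that most genes keep their level. This matters because with column totals the median M of all genes was not 0 in every group, at 0.21 in spt20Δ, 0.11 in spt20-HITΔ and 0.09 in tra1-Sptra2.

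Upstream sequences of 3 members are shown first, because these genes encode redox enzymes that recur among the larger differences below and are the only members that hold TTAGTCA in the 300 bases before their start. The oxidative-stress factor Pap1 of fission yeast, a relative of AP-1, is known to bind TTAGTCA and TTACGTAA. The sequences are the 170 bases before the start of each gene in RefSeq, read from its assembly ASM294v3 on the minus strand. They lie at chrI:2094985-2095154 for obr1 (SPAC3C7.14c, an NAD(P)H quinone dehydrogenase), at chrIII:2296106-2296275 for gst2 (SPCC965.07c, a glutathione S-transferase) and at chrI:60843-61012 for SPAC977.14c (an aldo-keto reductase). Capitals mark TTACGTAA, or TTAGTCA on either strand.
obr1: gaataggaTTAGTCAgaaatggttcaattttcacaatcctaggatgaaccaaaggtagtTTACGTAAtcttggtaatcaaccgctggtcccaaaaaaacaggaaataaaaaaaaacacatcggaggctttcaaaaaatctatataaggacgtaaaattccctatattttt
gst2: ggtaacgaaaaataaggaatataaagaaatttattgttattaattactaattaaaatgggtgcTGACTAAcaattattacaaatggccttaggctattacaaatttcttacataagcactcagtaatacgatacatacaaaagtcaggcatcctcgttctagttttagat
SPAC977.14c: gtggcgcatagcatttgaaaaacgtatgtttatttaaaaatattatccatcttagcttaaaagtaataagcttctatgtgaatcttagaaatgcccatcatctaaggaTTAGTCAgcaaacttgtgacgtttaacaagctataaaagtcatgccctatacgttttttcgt

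In obr1, TTAGTCA begins 162 bases and TTACGTAA 111 bases before the start, and in gst2 and SPAC977.14c TTAGTCA lies 107 and 62 bases before it. Over the 300 bases before the start, searched on both strands, 3 of 43 members (7.0%) held TTAGTCA, as did 4.8% of the 5106 genes with such a sequence. TTACGTAA was found before 1 member (2.3%) and 0.5% of genes. The TATA box TATAAA was found before 19 members (44.2%) and 51.1% of genes, CCAAT before 23 (53.5%) and 41.0%, and GAANNTTC, the core of the heat shock element, before 9 (20.9%) and 11.3%. The other motifs searched were GATAAG (7 members, 16.3%, against 11.7% of genes), TGACGT (4, 9.3% against 6.0%), CAGTCACA (1, 2.3% against 2.6%) and ACGCGT (1, 2.3% against 2.9%). These are matches of letters and say nothing about which factor is bound.

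The 43 members are spread over the genome and over cellular functions. Of them 20 are on chromosome I, 18 on II and 5 on III (46.5%, 41.9% and 11.6%, against 45.3%, 36.8% and 17.9% of all genes past the CPM minimum). Within 100 kb of a chromosome end lie gdt1 and SPAC977.14c (4.7% of members against 1.9% of genes). Neighbouring members were dsd1 with SPBC3B8.06, which converge, and ppr5 with SPAC1093.07, which diverge. By annotated product, 8 members encode redox enzymes or iron-sulphur assembly factors, 5 act in lipid metabolism or transfer, 4 are membrane transporters, 3 act in amino-acid synthesis, 4 in signalling or the cell cycle and 9 in chromatin, transcription, RNA or protein folding, while 5 have other annotations and 5 are uncharacterized. These groups were formed after the values were seen. Per kilobase of exon, obr1 was the most abundant member at 625 CPM, followed by SPAP8A3.07c at 523 CPM, a DAHP synthase that opens the synthesis of aromatic amino acids. The least abundant was SPBPJ4664.02 at 3.94 CPM, annotated as a glycoprotein. For SPAC977.14c 29.1% of 50-base windows, and for SPBPJ4664.02 22.3%, occur elsewhere in the genome, so their counts are uncertain. The genes cnp1 and mpr1 each overlap another gene of the table on the same strand.

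**Figure D1:**
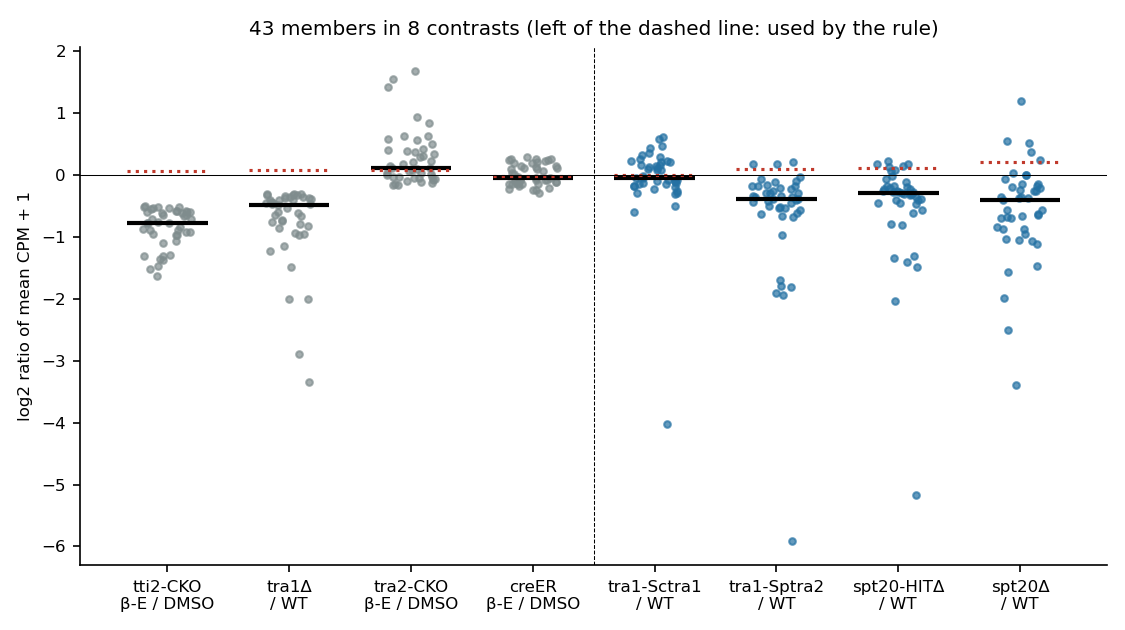
M, the log2 ratio of mean CPM + 1, of each of the 43 members (points) in 8 contrasts, where β-E is β-estradiol. Black bars are medians over the members and dotted red bars medians over 4653 genes; the 4 contrasts left of the dashed line chose the members, and the median M of the members was −0.04 in tra1-Sctra1, −0.38 in tra1-Sptra2, −0.28 in spt20-HITΔ and −0.40 in spt20Δ.

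In the contrasts that chose them, members are described without a test. The median M was −0.77 in tti2-CKO (range −1.63 to −0.51) and −0.49 in tra1Δ (range −3.34 to −0.31). All members had an M of at most −0.3 in both by construction, beside 15.6% of genes in tti2-CKO and 6.45% in tra1Δ. After loss of Tra2 the median M was 0.12 and the highest value 1.69. Again by construction, 0 members lay at −0.3 or below there, beside 8.79% of genes. In creER, where the rule set −0.3 as the lower limit, 4.49% of genes lay at −0.3 or below. In 39 members every tti2-CKO sample with β-estradiol lay below every one with DMSO, which held for 26.0% of genes. Groups did not overlap for 40 members in tra1Δ against WT (14.9% of genes).

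The thresholds divide similar genes. Just inside lay grx4, a monothiol glutaredoxin of iron homeostasis, with an M of −0.51 in tti2-CKO, mpr1, the phosphotransfer protein of the stress-activated kinase pathway, with −0.31 in tra1Δ, and puf1, an RNA-binding protein, with −0.16 in tra2-CKO. Just outside lay mot1 (−0.48 in tti2-CKO), rcf2 (−0.29 in tra1Δ) and rnc1 (−0.21 in tra2-CKO). SPCC569.05c, a gene the study followed, had an M of −1.76 in tti2-CKO and −1.40 in tra1Δ, and missed the rule by its −0.22 in tra2-CKO. With 1 library at a time left out of the rule, it gave 33 to 53 genes, and 11 members were in every such set. These were elo1, SPAC1F12.04c, whi2, zwf1, SPAP8A3.07c, SPAPB24D3.07c, SPBC25B2.03, dsd1, met17, ght2 and SPCC1672.01. All other members, gst2 and obr1 among them, were missing from at least 1 of these sets. The smallest sets, of 33 genes, came without creER DMSO replicate 1 and without tti2-CKO DMSO replicate 3. A gene can leave a set by any limit, that on creER included. For gst2 the M in tti2-CKO, tra1Δ and tra2-CKO was −1.63, −2.00 and 1.54, far from those limits. Membership of most genes thus depends on single libraries, but a lost membership need not mean that the fall in tti2-CKO or tra1Δ is lost.

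The lowest values in tti2-CKO belonged to gst2, vht1, gdt1 and SPAC8E11.10. The mRNA of gst2 stood at 182, 141 and 198 CPM with DMSO and at 51.4, 52.6 and 54.0 CPM with β-estradiol in tti2-CKO, and at 252, 150 and 221 CPM in WT and 36.4, 57.3 and 52.0 CPM in tra1Δ. Both pairs of groups were apart, and the depleted tti2-CKO samples and tra1Δ lay in the same range. With loss of Tra2 the same gene was higher, at 354, 408 and 271 CPM against 124, 128 and 125 CPM with DMSO. For vht1, the biotin transporter, tti2-CKO held 1017, 740 and 967 CPM with DMSO and 267, 303 and 331 CPM with β-estradiol, while tra2-CKO held 926, 1363 and 1278 CPM and 1421, 1054 and 1139 CPM. The 2 tra2-CKO groups overlapped for this gene. SPAC8E11.10, annotated as a sorbose reductase, stood at 460, 436 and 394 CPM with DMSO in tti2-CKO and at 144, 138 and 188 CPM with β-estradiol, with no overlap. The gdt1 mRNA varied widely between like samples, at 73.9, 9.88 and 42.7 CPM with DMSO and 21.6, 6.58 and 13.1 CPM with β-estradiol in tti2-CKO, so that these groups overlapped.

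In tra1Δ the lowest values belonged to gdt1, SPAPB24D3.07c and obr1, with gst2 next. The gdt1 mRNA stood at 95.6, 92.5 and 83.6 CPM in WT and at 22.7, 0.876 and 0.406 CPM in tra1Δ. Its tra1Δ replicate 1 was thus far from the others. SPAPB24D3.07c, an uncharacterized gene, stood at 534, 685 and 344 CPM in WT and at 55.3, 48.2 and 89.9 CPM in tra1Δ. In tti2-CKO it stood at 366, 125 and 320 CPM with DMSO and at 188, 63.2 and 148 CPM with β-estradiol, and these groups overlapped. Its level with DMSO was 80.5, 53.8 and 85.2 CPM in creER and 54.1, 38.8 and 54.2 CPM in tra2-CKO, near or below tra1Δ and below every WT library. The creER and tra2-CKO strains thus lay below WT in this gene before β-estradiol, while tti2-CKO with DMSO overlapped with WT. Its M above −0.2 in tra2-CKO starts from that low level. With DMSO, dsd1, cao2 and gdt1 also lay below every WT library in creER and tra2-CKO. In tra2-CKO with DMSO they stood at 208 to 293, 4.17 to 7.84 and 25.4 to 30.3 CPM, respectively. WT held 305 to 616, 18.6 to 88.2 and 83.6 to 95.6 CPM. Not all members were so, as vht1 in tra2-CKO with DMSO (926, 1363 and 1278 CPM) overlapped with WT. The obr1 mRNA stood at 803, 586 and 760 CPM in WT and 159, 203 and 148 CPM in tra1Δ, and at 670, 610 and 665 CPM with DMSO and 328, 436 and 463 CPM with β-estradiol in tti2-CKO. Both pairs were apart, by more in tra1Δ (M of −2.00) than in tti2-CKO (M of −0.59).

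**Figure D2:**
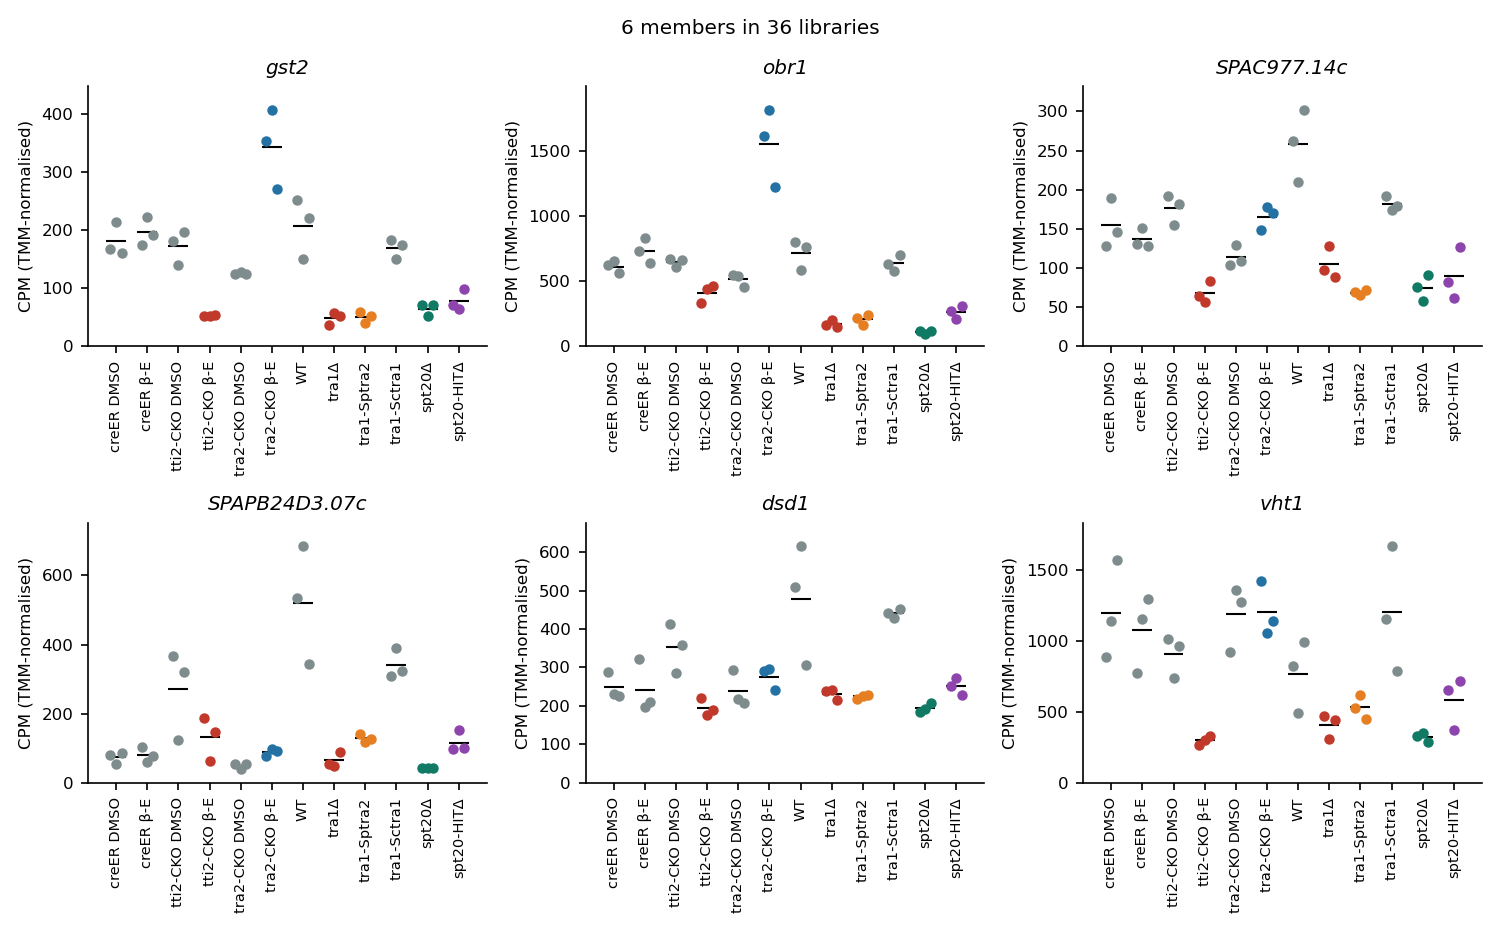
TMM-normalised CPM (y axis, starting at 0) of 6 members in each of the 36 libraries (points) of 12 groups, with the mean of each group as a bar; β-E is β-estradiol. For gst2, obr1, SPAC977.14c, SPAPB24D3.07c, dsd1 and vht1, all 3 tra1-Sptra2 libraries (orange) lie below all 3 tra1-Sctra1 libraries, and gst2 and obr1 are highest in tra2-CKO with β-estradiol (blue).

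The first comparison on groups that the rule's contrasts did not use asks how the members differ between the hybrid Tra1 that does not enter SAGA and the one that does. It was fitted with edgeR's quasi-likelihood test over all 4894 genes that passed the low-count filter, all 43 members among them. Calls required a 1.5-fold difference or more and a Benjamini-Hochberg adjusted p no higher than 0.01. Of the members, 18 were called lower in tra1-Sptra2 and 0 higher, where 2.04% of genes were called lower and 0.45% higher. Their median log2 fold change was −0.55 (all genes 0.01), from −3.51 to −0.02, so that 43 of 43 lay below 0, as did 47.3% of genes. In 36 members all tra1-Sptra2 libraries lay below all tra1-Sctra1 libraries, against 18.2% of genes.

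Redox enzymes were among the larger falls, and 5 of the 8 members of this group were called lower. The gst2 mRNA stood at 58.6, 40.4 and 51.7 CPM in tra1-Sptra2 and at 182, 151 and 175 CPM in tra1-Sctra1, a log2 fold change of −1.75 ± 0.12 (SE; edgeR adjusted p = 1.00e-06). The obr1 mRNA stood at 217, 165 and 242 CPM against 627, 577 and 701 CPM, a log2 fold change of −1.60 ± 0.12 (SE; edgeR adjusted p = 2.51e-06). SPAC977.14c, with uncertain counts, stood at 68.6, 64.9 and 71.7 CPM against 192, 174 and 179 CPM, with a log2 fold change of −1.40. In all of these the hybrids were apart. The mRNA of zwf1, the glucose-6-phosphate dehydrogenase that feeds NADPH into redox defence, stood at 253, 260 and 277 CPM against 426, 470 and 387 CPM and fell by 0.69 on the log2 scale. SPAC8E11.10 stood at 308, 312 and 345 CPM against 479, 614 and 561 CPM and fell by 0.77, and neither gene's groups overlapped. The other members of the group were not called, with log2 fold changes of −0.30 for grx4, −0.45 for dre2, an electron-transfer factor of cytosolic iron-sulphur assembly, and −0.28 for SPAC5H10.10, annotated as an NADPH dehydrogenase. A wider list of 22 genes, drawn up for glutathione and redox defence, holds gst2, obr1 and grx4. It had 2 lower (gst2 and obr1), 0 higher and a median of 0.00, so that most of this list lay where all genes did. Its entry pcs1 was matched through a synonym to csm1 (0.14, not called), which may lie outside redox defence. The phytochelatin synthetase gene pcs2, a member, is not in the list.

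SPAPB24D3.07c stood at 140, 116.9 and 127 CPM in tra1-Sptra2 and at 309, 391 and 324 CPM in tra1-Sctra1, a log2 fold change of −1.41 ± 0.09 (SE; edgeR adjusted p = 7.73e-07). Of the 5 uncharacterized members, SPAPB24D3.07c, SPBC3B8.06 (−0.62) and SPCC1795.12c (−0.62) fell, and SPAC1093.07 (−0.25) and SPAC1F12.04c (−0.02) were not called. Among lipid genes, dsd1, a dihydroceramide desaturase of sphingolipid synthesis, stood at 218, 226 and 228 CPM against 441, 427 and 452 CPM, a log2 fold change of −0.96 ± 0.06 (SE; edgeR adjusted p = 7.73e-07). Its libraries were tight within each hybrid and far apart between them. The sterol transfer gene osh3 fell by 0.65 on the log2 scale. The mRNA of lcf1, a long-chain fatty acyl-CoA ligase, stood at 958, 996 and 874 CPM against 1453, 1620 and 1089 CPM (−0.55). For lcf1 and elo1, a fatty acid elongase (−0.48), the groups were apart but the fold change was under 1.5.

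Of the transporters, vht1 stood at 530, 620 and 451 CPM in tra1-Sptra2 and at 1157, 1669 and 786 CPM in tra1-Sctra1, a log2 fold change of −1.16 ± 0.20 (SE; edgeR adjusted p = 0.00244), and mug86, annotated as an acetate transporter, fell by 0.76. Against WT, the M of vht1 was 0.62 in tra1-Sctra1 and −0.44 in tra1-Sptra2. Its tra1-Sptra2 libraries overlapped with those of WT (823, 492 and 989 CPM). A list of 13 vitamin and amino-acid transporters had 3 lower, vht1, cat1 and aat1, and a median of −0.24. In amino-acid synthesis, met17 (homocysteine synthase) fell by 0.93 and SPCC1672.01 (histidinol-phosphatase, of histidine synthesis) by 0.67. For met17 the M against WT was 0.47 in tra1-Sctra1 and −0.36 in tra1-Sptra2. In chromatin and signalling, jmj1, annotated as a histone demethylase, fell by 0.78 and mik1, a kinase that restrains entry into mitosis, by 0.88. The copper amine oxidase cao2 stood at 15.2, 12.8 and 13.1 CPM against 57.9, 39.2 and 30.8 CPM, with a log2 fold change of −1.62. It was not called in the fit of all 36 libraries (adjusted p = 0.0292 from edgeR).

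The gdt1 gene had 2, 2 and 4 counts in tra1-Sptra2 and 18, 19 and 49 counts in tra1-Sctra1. Its summed count, scaled to library size, was 12.1-fold lower in tra1-Sptra2, with an exact 95% counting interval of 5.87 to 28.9 that covers counting error only. WT held 95.6, 92.5 and 83.6 CPM of this gene, so tra1-Sctra1, at 3.09 to 7.11 CPM, was itself far below WT. Its M in tra1-Sctra1 over WT was −4.02, while the next lowest M among members was −0.59, for SPAPB24D3.07c. The gdt1 call was lost without tra1-Sptra2 replicate 2 (adjusted p = 0.0102 from edgeR) and in the fit of all 36 libraries (0.237). In spt20Δ gdt1 stood at 26.9, 0.825 and 28.9 CPM, so that replicate 2 was far from the others. Its log2 value against tra1-Sctra1 was 2.04 (edgeR adjusted p = 0.0476, not called), and 2.61 without that replicate, which was called (0.000106).

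Of the 18 members called, 10 were called in every fit that left out 1 library: gst2, obr1, SPAC977.14c, SPAPB24D3.07c, cao2, dsd1, mik1, SPAC8E11.10, zwf1 and SPCC1672.01. The vht1 call was lost without tra1-Sptra2 replicate 1 or 3 (edgeR adjusted p = 0.0150 and 0.0162), and those of met17 and jmj1 without tra1-Sptra2 replicate 1 or 2. The osh3 call was lost without tra1-Sptra2 replicate 1 or 3 or tra1-Sctra1 replicate 1 or 2, and the mug86 call without tra1-Sptra2 replicate 2 or 3 or tra1-Sctra1 replicate 3. SPCC1795.12c lost its call without tra1-Sptra2 replicate 1 or 3 or tra1-Sctra1 replicate 2, and SPBC3B8.06 without tra1-Sptra2 replicate 1 or tra1-Sctra1 replicate 3. In the fit of all 36 libraries met17 and SPBC3B8.06 were not called either (edgeR adjusted p = 0.0459 and 0.0470), and DESeq2 did not call met17 (adjusted p = 0.0138). All these values stayed below 0.

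**Figure D3:**
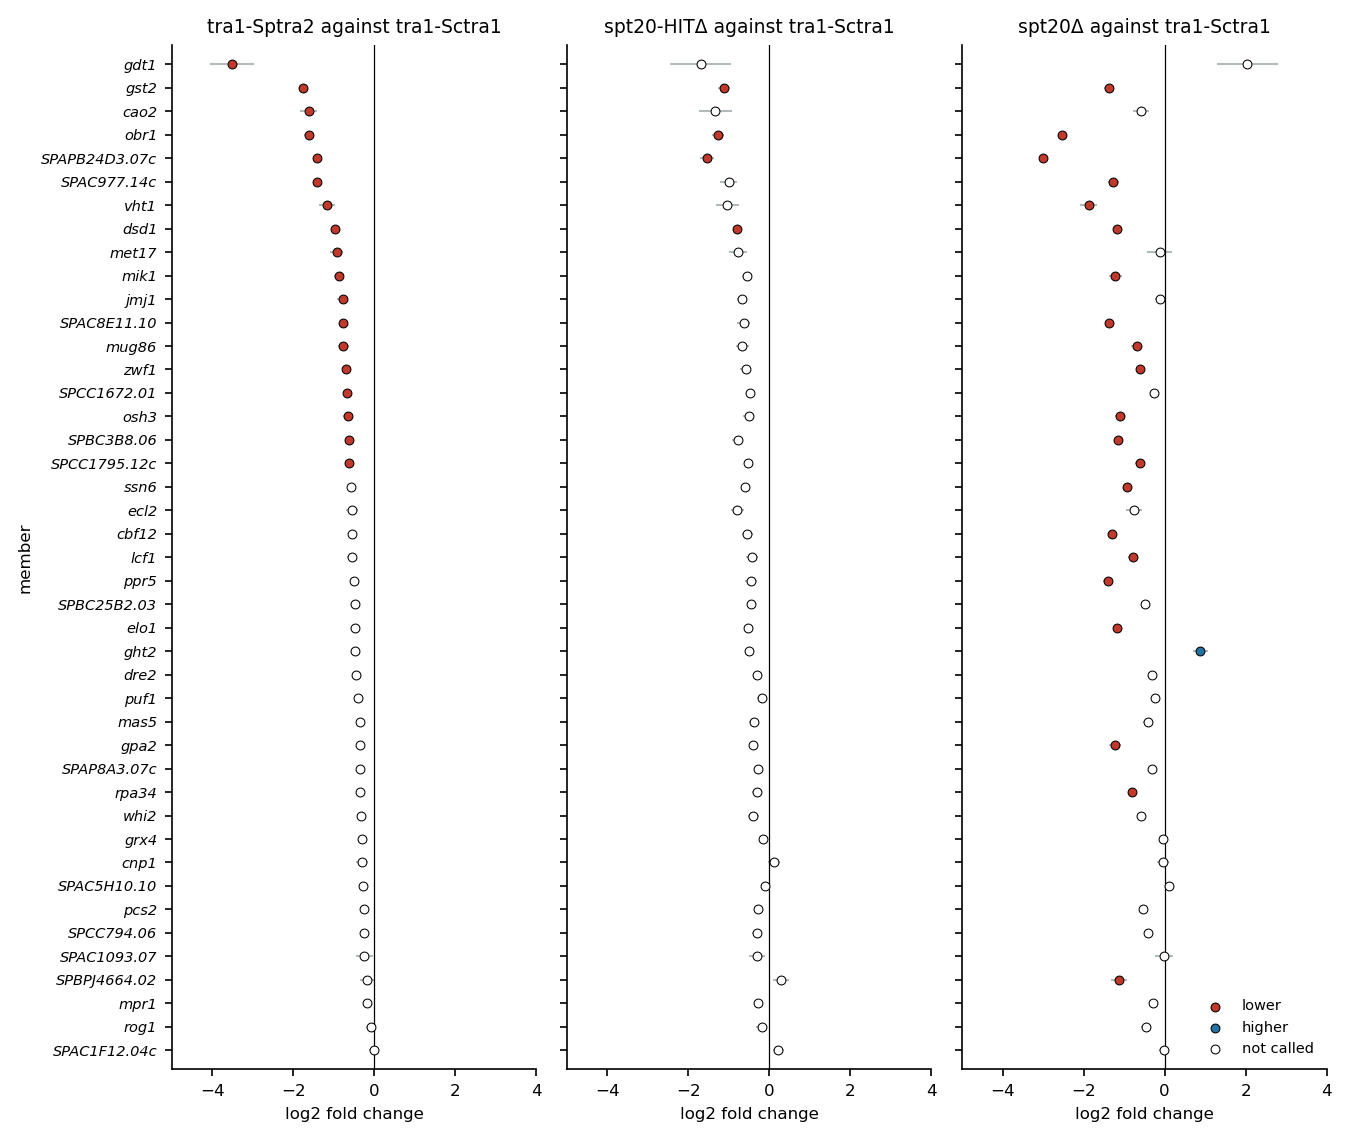
Log2 fold change (x axis) with its standard error (grey line) of the 43 members (rows, in the order of the left panel) in tra1-Sptra2, spt20-HITΔ and spt20Δ, each against the same 3 tra1-Sctra1 libraries. Filled points mark members past both the p limit of 0.01 and the 1.5-fold limit: 18 members lower on the left, 4 lower in the middle, and 21 lower and 1 higher (ght2) on the right.

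In spt20-HITΔ, which lacks the region of Spt20 that holds Tra1, members were compared with tra1-Sctra1 again. As the tra1-Sctra1 libraries are the same, the fold changes of the 3 comparisons with them are not independent of each other. Here 4 of 43 members were called lower and 0 higher, against 0.266% and 0.0409% of 4888 genes. These were SPAPB24D3.07c, obr1, gst2 and dsd1. The median over the members was −0.50 (all genes 0.01), with 40 below 0, and in 32 members all spt20-HITΔ libraries lay below all tra1-Sctra1 libraries (13.1% of genes).

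SPAPB24D3.07c stood at 96.8, 152 and 100 CPM in spt20-HITΔ, a log2 fold change of −1.55 ± 0.17 (SE; edgeR adjusted p = 0.00472). The obr1 mRNA stood at 267, 208 and 310 CPM (−1.28 ± 0.14, edgeR adjusted p = 0.00472), and gst2 at 70.9, 64.0 and 98.0 CPM (−1.12 ± 0.15, edgeR adjusted p = 0.00904). The dsd1 mRNA stood at 251, 273 and 228 CPM, a log2 fold change of −0.81 (adjusted p = 0.00472 from edgeR). None of these groups overlapped with the tra1-Sctra1 values given above. SPAC977.14c (−1.01, adjusted p = 0.0409) and vht1 (−1.04, adjusted p = 0.111) did not pass the test from edgeR, with groups that did not overlap. At the other end were SPBPJ4664.02 at 0.28, SPAC1F12.04c at 0.22 and the centromeric histone gene cnp1 at 0.12, which were not called.

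The number of calls in spt20-HITΔ rests on single libraries. Without any 1 of tra1-Sctra1 replicates 1 to 3 or without spt20-HITΔ replicate 1, edgeR called 0 members and 0 genes, although 29 to 33 members were lower and 563 to 848 genes differed at an unadjusted p under 0.05. Without spt20-HITΔ replicate 2, 13 members were called. DESeq2 called 13 members with all libraries and the fit of all 36 libraries called 8. The median over members stayed between −0.55 and −0.46 when 1 library was left out.

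In spt20Δ, which lacks the core subunit, 21 of 43 members were called lower and 1 higher against tra1-Sctra1, where 4.7% of 4917 genes were called lower and 5.96% higher. The median log2 fold change was −0.62 (all genes 0.03), with 40 members below 0, and 32 had all spt20Δ libraries below all tra1-Sctra1 libraries, as did 25.4% of genes. SPAPB24D3.07c stood at 41.7, 42.5 and 41.4 CPM, a log2 fold change of −3.01 ± 0.10 (SE; edgeR adjusted p = 6.38e-09). The obr1 mRNA stood at 113, 94.7 and 118 CPM (−2.53 ± 0.11, edgeR adjusted p = 5.79e-08). Both were far below the tra1-Sctra1 values, and SPAPB24D3.07c hardly varied between samples. The vht1 mRNA stood at 332, 351 and 287 CPM (−1.87, adjusted p = 5.80e-05 from edgeR).

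Of the 5 lipid members, 4 were lower in spt20Δ, namely dsd1 (−1.17), elo1 (−1.17), osh3 (−1.10) and lcf1 (−0.79). Of the 8 redox and iron-sulphur members, the same 5 were lower as in tra1-Sptra2, with gst2 at 70.6, 52.1 and 71.1 CPM (−1.38) and SPAC977.14c at 75.8, 57.9 and 91.0 CPM (−1.27). The call of zwf1 (−0.62) was lost without tra1-Sctra1 replicate 2 (−0.55), where its fold change was under 1.5. Also lost were the calls of mug86 (−0.69), without tra1-Sctra1 replicate 1 or 3 or spt20Δ replicate 2, and of SPCC1795.12c (−0.61), without tra1-Sctra1 replicate 2 or spt20Δ replicate 2. In the wider redox list, 2 of 22 genes were lower, gst2 and obr1, while 6 were higher, grx1, grx2, gst3, sod1, gpx1 and ctt1, with a median of 0.09. Among 14 stress-induced genes, 2 were lower (rds1 and gst2) and 7 higher, with a median of 0.52.

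Genes of signalling and transcription were also called. The gpa2 mRNA, which encodes the G protein subunit that passes the glucose signal to adenylate cyclase, stood at 58.5, 58.2 and 37.6 CPM in spt20Δ and at 120, 122 and 127 CPM in tra1-Sctra1 (−1.23 ± 0.14, edgeR adjusted p = 7.00e-05). In the hybrid tra1-Sptra2 it stood at 97.6, 97.3 and 93.1 CPM, with a log2 fold change of −0.35 that was under 1.5-fold. Its group in spt20Δ was therefore apart from both hybrids. Of 11 genes of the cAMP pathway, 2 were lower in spt20Δ (gpa2 and git3, the glucose receptor) and 2 higher (hsp90 and git5). Also lower were cbf12 (−1.30), a transcription factor of the CSL family, ssn6 (−0.92), a global corepressor, and ppr5 (−1.41), a protein with pentatricopeptide repeats. The same held for mik1 (−1.21) and rpa34 (−0.80), a subunit of RNA polymerase I. Some of these genes stood above WT in tra1-Sctra1. The M over WT in tra1-Sctra1 and spt20Δ was 0.59 and −0.62 for ppr5, 0.43 and −0.66 for cbf12 and 0.33 and −0.40 for ssn6. It was 0.16 and −0.84 for mik1 and −0.08 and −0.68 for rpa34.

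Read across the 3 comparisons with tra1-Sctra1, 4 members were lower in all, 9 in tra1-Sptra2 and spt20Δ, 5 in tra1-Sptra2 alone, 8 in spt20Δ alone, 1 was higher in spt20Δ alone and 16 were not called in any. Those called in 1 genotype alone are not thereby shown to differ from the others, which was tested for the spt20 alleles only. Among the 16 not called are SPAP8A3.07c at 730, 720 and 749 CPM in tra1-Sptra2 and 909, 1014 and 886 CPM in tra1-Sctra1 (−0.34) and mas5, a DnaJ cochaperone of Hsp70, at 383, 410 and 406 CPM and 486, 581 and 478 CPM (−0.36). These values did not overlap, but the differences were small. The grx4 mRNA stood at 154, 148 and 146 CPM against 184, 183 and 189 CPM. The members nearest to 0 between the hybrids were SPAC1F12.04c at 42.3, 33.6 and 42.4 CPM against 40.0, 37.5 and 42.4 CPM (−0.02), the lipase gene rog1 at 140, 142 and 102 CPM against 151, 150 and 110 CPM (−0.08), and mpr1 at 69.5, 71.0 and 85.6 CPM against 76.9, 82.0 and 96.1 CPM (−0.17). The hybrids overlapped in each of these.

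Whether members differ between full loss of Spt20 and loss of its HIT region was tested directly. Of the 43 members, 6 were lower in spt20Δ than in spt20-HITΔ and 1 higher, against 1.55% and 2.71% of 4909 genes. The median was −0.20 (all genes 0.00), and 19 members had all spt20Δ libraries below all spt20-HITΔ libraries, beside 18.8% of genes. SPAPB24D3.07c (−1.47, adjusted p = 0.00193) and obr1 (−1.27, adjusted p = 0.00192) were thus lower still in spt20Δ than in spt20-HITΔ by edgeR. For gst2 (−0.27 ± 0.18, edgeR adjusted p = 0.297), SPAC977.14c (−0.28, standard error 0.25) and zwf1 (−0.04, standard error 0.13), no difference between the alleles passed the test from edgeR and the groups overlapped.

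SPBPJ4664.02, with uncertain counts, stood at 19.1, 21.3 and 18.4 CPM in spt20Δ and at 49.7, 61.1 and 47.5 CPM in spt20-HITΔ, a log2 fold change of −1.43 ± 0.13 (SE; edgeR adjusted p = 0.000917). Its spt20-HITΔ libraries overlapped with those of WT (46.7, 53.0 and 51.2 CPM), and among members only its call held whichever of the 6 libraries was omitted. The others lower in spt20Δ were ppr5 (−0.97), elo1 (−0.65) and osh3 (−0.60).

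The hexose transporter gene ght2 moved the other way. It stood at 522, 576 and 308 CPM in spt20Δ and at 188, 158 and 198 CPM in spt20-HITΔ, a log2 fold change of 1.37 ± 0.22 (SE; edgeR adjusted p = 0.00611), and at 240, 265 and 266 CPM in tra1-Sctra1 (0.88, adjusted p = 0.00294 from edgeR). It is a member because it was lower in tti2-CKO with β-estradiol (112, 134 and 107 CPM against 228, 233 and 250 CPM) and in tra1Δ (174, 168 and 153 CPM against 225, 224 and 259 CPM in WT). In spt20Δ it was above WT in every library. Its calls rest on few libraries: it was not called against tra1-Sctra1 without replicate 1 or 2 of either group, nor against spt20-HITΔ without spt20Δ replicate 1 or 2 or spt20-HITΔ replicate 1 or 3, with log2 fold changes from 0.71 to 1.11 against tra1-Sctra1 and from 1.19 to 1.60 against spt20-HITΔ.

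When 1 library was left out, between 1 and 7 members were lower in spt20Δ than in spt20-HITΔ, with 1 without spt20Δ replicate 1 or 2 and 2 without spt20-HITΔ replicate 1. The obr1 call was made in 3 of these 6 fits, that of SPAPB24D3.07c in 4, of ppr5 in 2 and of elo1 and osh3 in 1 each.

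**Figure D4:**
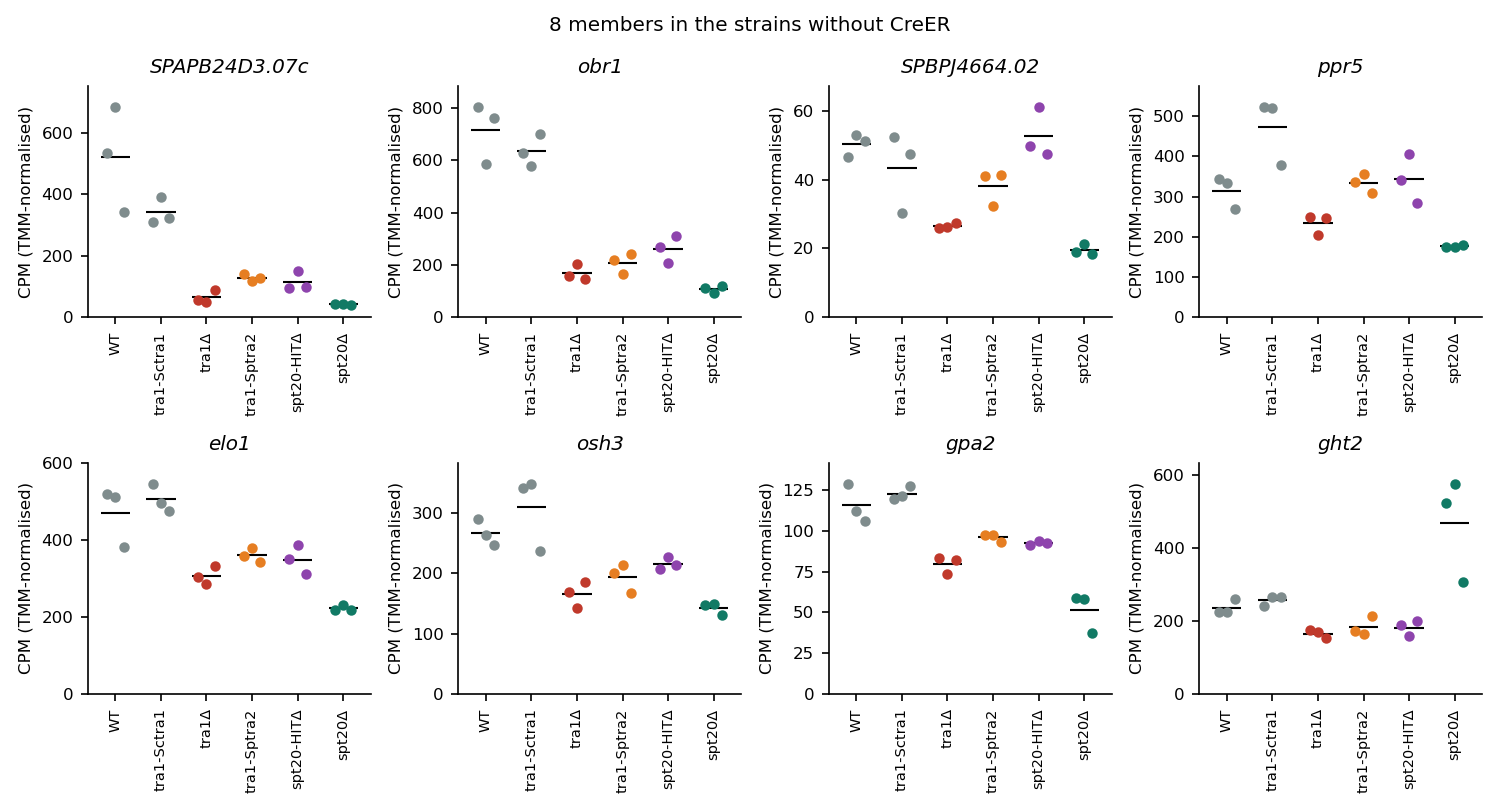
TMM-normalised CPM (y axes, starting at 0) of 8 members in the 3 libraries (points) of each of the 6 strains without CreER, with the group mean as a bar. SPAPB24D3.07c, obr1, ppr5, elo1, osh3 and gpa2 are lowest in spt20Δ by group mean, SPBPJ4664.02 is at 47.5 to 61.1 CPM in spt20-HITΔ but 18.4 to 21.3 CPM in spt20Δ, and ght2 is highest in spt20Δ.

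The WT libraries helped to choose the members, and values against WT are therefore a description. An M of at most −0.3 was found for 26 members in tra1-Sptra2 (7.91% of genes), 4 in tra1-Sctra1 (3.7%), 21 in spt20-HITΔ (4.6%) and 26 in spt20Δ (9.37%). The median M of the members was −0.38, −0.04, −0.28 and −0.40, respectively, and that of all genes 0.09, 0.00, 0.11 and 0.21. For obr1 the M was −1.69 in tra1-Sptra2, −0.17 in tra1-Sctra1, −1.35 in spt20-HITΔ and −2.51 in spt20Δ, beside −2.00 in tra1Δ. For gst2 these values were −1.94, −0.29, −1.31 and −1.47, beside −2.00 in tra1Δ. Both genes were thus nearest to WT in tra1-Sctra1, while spt20Δ was lowest for obr1 and tra1Δ for gst2. Over all members, the M nearest to 0 of these 4 alleles was that of tra1-Sctra1 in 25 of 43, and that of another allele in 18. Among the latter, vht1 was at 0.62 in tra1-Sctra1 and −0.31 in spt20-HITΔ, cbf12 was at 0.43 in tra1-Sctra1 and −0.03 in tra1-Sptra2, rog1 was at 0.21 in both hybrids, ppr5 at 0.18 in tra1-Sptra2 and 0.23 in spt20-HITΔ, and met17, at −1.15 in tra1Δ, was at 0.55 in spt20Δ, where its libraries stood at 119, 105 and 309 CPM.

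Other pathways were listed for comparison, and several held calls in spt20Δ. None of the 19 SAGA subunit genes or 3 TTT genes was a member or was called in tra1-Sptra2 or spt20-HITΔ against tra1-Sctra1, with medians from 0.02 to 0.15 by edgeR, and in spt20Δ only spt20 itself was lower. At an unadjusted p under 0.05, 1 SAGA gene was lower and 2 were higher in each of the former comparisons and 0 TTT genes differed, and DESeq2 called 1 SAGA gene lower in spt20-HITΔ. There spt20 itself had a log2 fold change of −0.89 (edgeR adjusted p = 0.0157). In spt20Δ at the same unadjusted limit, 1 SAGA gene was lower and 7 were higher, and 1 TTT gene was higher. The medians there were 0.18 for SAGA and 0.22 for TTT genes. Of 12 heat shock chaperone genes, which include mas5, 2 were lower in tra1-Sptra2 (ssa1 and hsp16; median −0.20), 0 were called by edgeR or DESeq2 in spt20-HITΔ (median −0.13, 4 lower at an unadjusted p under 0.05), and 2 were lower (ssa1 and ssa2) and 3 higher in spt20Δ (median 0.33). Of the 14 stress-induced genes, 4 were lower in tra1-Sptra2, rds1, gpd1, hsp16 and gst2 (median −0.18), and gst2 alone in spt20-HITΔ. Of 5 pentose phosphate pathway genes only zwf1 was called, lower in tra1-Sptra2 and in spt20Δ.

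The lists of pyrimidine synthesis (5 genes, 0 called in any comparison by edgeR or DESeq2, 2 lower in tra1-Sptra2 and 2 in spt20Δ at an unadjusted p under 0.05), copper and iron uptake (9 genes) and mating and meiotic entry (11 genes, of which 8 were tested) held no members. Of the iron and copper genes tested, str1 was lower in tra1-Sptra2, 0 were called by edgeR in spt20-HITΔ (5 lower at an unadjusted p under 0.05, 1 by DESeq2), and ctr5 and fep1 were lower and fio1 higher in spt20Δ. Of the mating genes, edgeR called 0 in tra1-Sptra2 (1 lower and 2 higher at an unadjusted p under 0.05) and 0 in spt20-HITΔ (1 lower, which DESeq2 called), and 4 were higher in spt20Δ (mam2, mei2, map3 and ste11). Of the 13 transporters, vht1 among them, edgeR called 0 in spt20-HITΔ (6 lower at an unadjusted p under 0.05, 1 by DESeq2), and in spt20Δ 5 were lower (vht1, put4, per1, isp4 and aat1) and 1 higher (dip5). Of the cAMP pathway, edgeR and DESeq2 called 0 genes in tra1-Sptra2 (3 lower and 1 higher at an unadjusted p under 0.05) and 0 in spt20-HITΔ (2 lower).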

How the data were processed

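The authors aligned single reads of stranded polyA libraries with HISAT2 2.1.0 and counted them per gene, reverse stranded, with HTSeq 0.9.1 (versions from the submitters' processing notes), and deposited raw counts. The genome build and annotation are not given in the sources used here. The study sequenced more libraries than the 36 analysed here, and the others were not analysed here. Columns left unused numbered 0. RefSeq's ASM294v3 gave names (5111 of 5129 IDs matched, all 43 members), neighbours, exon lengths and upstream sequences.

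The members and gene lists were chosen with earlier results of these data known. The 4 comparisons among the hybrids and spt20 alleles each used the 6 libraries of their groups, in edgeR 4.0.16 under R 4.3.3 (TMM, filterByExpr with a minimum count of 10, two-sided quasi-likelihood F-test, Benjamini-Hochberg over all genes tested). The fit was tested on simulated data. A standard error is the log2 fold change divided by the square root of F. Exact permutation of 3 against 3 libraries reaches a two-sided p of 0.1 at the smallest, so none was used. The labels number the 3 samples of a group as replicates and the study analysed each condition in triplicate. The study describes them as independent biological samples. The p-values therefore measure the spread between such samples of a single strain per genotype.

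Members given by library are gst2, which the study measured, the 8 lowest called and not overlapping and the 4 highest in tra1-Sptra2 against tra1-Sctra1, up to 4 called in spt20Δ against spt20-HITΔ, the 4 most abundant, the 4 lowest in tti2-CKO, the 3 lowest in tra1Δ and those in a gene list. Other members are named by product or where a count singles them out, after their values were seen. Alternatives were DESeq2 1.42.0, RLE normalization, other filters, a replicate block, a fit of all 36 libraries, other settings of the rule and leaving out each library.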

Additional observations from a re-analysis of the deposited data

Results flagged for a closer look

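In 9 members the samples of tti2-CKO and tra2-CKO moved in opposite directions with β-estradiol, every tti2-CKO sample lying below and every tra2-CKO sample above its DMSO group. This held for 20.9% of members and 1.59% of genes, but the rule fixed the direction in tti2-CKO. In tra2-CKO alone, 11 of 43 members lay above their DMSO group without overlap, beside 25.7% of genes. The difference between the strains was not tested for these genes, because the rule that chose the members used both contrasts. The M in tra2-CKO was 1.69 for obr1, 1.54 for gst2 and 1.43 for ecl2, a gene that extends chronological lifespan in fission yeast when its dose is raised. Their M in tti2-CKO was −0.59, −1.63 and −1.07. The obr1 mRNA stood at 1611, 1815 and 1224 CPM in tra2-CKO with β-estradiol against 547, 542 and 455 CPM with DMSO, and ecl2 at 135, 133 and 105 CPM against 53.8, 53.7 and 38.8 CPM. The others were SPCC794.06, annotated as a malic acid transporter (0.63 in tra2-CKO, −0.52 in tti2-CKO), SPAC977.14c (0.62, −1.28), mik1 (0.57, −0.97), SPBC25B2.03 (0.50, −0.59), mpr1 (0.40, −0.51) and osh3 (0.39, −0.62). In creER, which the rule limits to an M between −0.3 and 0.3, osh3 had 0.29 and SPBC25B2.03 0.23, both higher with β-estradiol without overlap. The osh3 mRNA stood at 264, 217 and 295 CPM with DMSO and 304, 297 and 343 CPM with β-estradiol there. The M in creER was 0.26 for obr1, 0.25 for ecl2, 0.11 for gst2 and SPCC794.06, −0.13 for mpr1, −0.19 for SPAC977.14c and −0.22 for mik1. Treatment lasted 18 h in tti2-CKO and 21 h in tra2-CKO, so the duration and the strain cannot be told apart.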

How the results depend on the processing

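In tra1-Sptra2 against tra1-Sctra1, 122 genes were called, and 69 in the fit of all 36 libraries. With 1 library left out, 87 to 129 genes and 13 to 20 members were called, and the members' median log2 fold change was −0.54 to −0.50. In spt20-HITΔ against tra1-Sctra1, the 4 members and 15 genes became 13 and 82 with DESeq2 and 8 and 45 in the fit of all 36 libraries. Left-out libraries gave 0 to 13 members, 0 to 111 genes and medians of −0.55 to −0.46. In spt20Δ against tra1-Sctra1 they gave 19 to 24 members, 420 to 575 genes and medians of −0.64 to −0.59. In spt20Δ against spt20-HITΔ, the 6 members and 209 genes became 10 and 344 with DESeq2, and the fit of all 36 libraries called 350 genes. Left-out libraries gave 1 to 7 members, 39 to 329 genes and medians of −0.24 to −0.06. The rule gave 33 to 53 members with a library left out, and with TMM-normalised CPM 57, of which 37 were among the 43. Against WT, the median M of the members went from −0.38 to −0.48 with TMM-normalised CPM and to −0.35 with a pseudocount of 5 in tra1-Sptra2 (left-out libraries −0.42 to −0.34), from −0.40 to −0.62 with TMM in spt20Δ (−0.47 to −0.39) and from −0.28 to −0.39 with TMM in spt20-HITΔ (−0.38 to −0.23). In tra1-Sctra1 it was −0.041 (−0.048 to 0.041). The cause of these shifts was not tested, and no called value changed sign.

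The correlation of the deviations of same-numbered replicates was over 0.1 for every pair in none of the comparisons. For replicates 1, 2 and 3 it was 0.03, 0.28 and 0.38 in spt20Δ against spt20-HITΔ. In spt20Δ against tra1-Sctra1 it was 0.01, 0.14 and 0.21. Whether same-numbered replicates share more than a number was not tested. With a replicate block, 18, 3, 22 and 9 members were called lower in tra1-Sptra2, spt20-HITΔ and spt20Δ against tra1-Sctra1 and in spt20Δ against spt20-HITΔ, and 129, 12, 574 and 288 genes were called. The block ended the call of dsd1 in spt20-HITΔ (−0.81, edgeR adjusted p = 0.0271). It called gdt1 higher in spt20Δ against tra1-Sctra1 (1.92, 0.00661) and against spt20-HITΔ (3.77, 0.00249), the latter as in the fit of all 36 libraries (3.74, 0.00952).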
